A study of Mus musculus with 2 samples.

Results

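Apelin, its receptor and genes known from sprouting vessel tips were followed across single cells of mouse embryos with and without an activating Pik3ca allele. The genes are Apln, Aplnr, Apela, Esm1, Unc5b, Robo4 and Cd34, 7 of the 32285 gene rows, chosen by symbol, and each symbol matched 1 identifier. Cells carrying eYFP, the fluorescent label left by Isl1-Cre, were sorted at E13.5 from the upper body above the liver, a tissue labelled pharyngeal arch, with dead cells gated out by 7-AAD. The control genotype was Isl1-Cre;R26R-eYFP and the mutant genotype was Isl1-Cre;R26R-eYFP;Pik3caH1047R, both on a mixed C57BL/6J and CD1(ICR) background. Both groups therefore carried Isl1-Cre and the eYFP reporter. Isl1-Cre also removes the stop cassette in front of Pik3caH1047R, so the allele was active in every class of sorted cell that had recombined, not in vessels alone. There was 1 library per genotype, each of 3 pooled embryos, so values have no replicate and the genotypes were compared without a test.

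A sprouting vessel is led by tip cells, which sense guidance cues and secrete signals, and is followed by stalk cells, which form the lumen. Apln encodes apelin, a secreted peptide made by tip cells, and Aplnr encodes the G protein-coupled receptor that binds it, known from veins and from cells behind the tip. Apela encodes a second peptide ligand of the same receptor. Esm1 encodes endocan, a secreted proteoglycan of tip cells. Unc5b is a netrin receptor that restrains sprouting, Robo4 is the endothelial roundabout receptor that binds UNC5B and keeps vessels tight, and Cd34 is a sialomucin of the surface of endothelial cells, tip cell filopodia and blood progenitors.

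Both ligands of Aplnr are short peptides cut from the end of their precursors, and the bases that encode them are shown because these ligands lay in different cells here. Apln (ENSMUSG00000037010) is on the minus strand of chromosome X at 48025146 to 48034853 in GRCm38, with 77 codons in 3 exons. Its last 36 codons lie in 1 exon, at chrX:48028302-48028409, and the capitals mark the last 13, which encode the shortest peptide in common use, apelin-13. Apela (ENSMUSG00000079042) is on the minus strand of chromosome 8 at 65028417 to 65037336, with 54 codons. Its last 32 codons, shown with no capitals, encode the mature peptide and span 2 exons between 65035669 and 65036899. Aplnr (ENSMUSG00000044338, chromosome 2, 85136225 to 85139923, plus strand) is a gene of 1 exon. Esm1 (ENSMUSG00000042379) lies on chromosome 13 at 113209659 to 113218098 and Unc5b (ENSMUSG00000020099) on chromosome 10 at 60762593 to 60831581. Robo4 (ENSMUSG00000032125) lies on chromosome 9 at 37401897 to 37415115 and Cd34 (ENSMUSG00000016494) on chromosome 1 at 194938819 to 194961279. Both stretches printed are from GENCODE transcripts and read 5′ to 3′.
Apln: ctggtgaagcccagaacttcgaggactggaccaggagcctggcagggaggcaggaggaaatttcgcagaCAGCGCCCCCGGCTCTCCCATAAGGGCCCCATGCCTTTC
Apela: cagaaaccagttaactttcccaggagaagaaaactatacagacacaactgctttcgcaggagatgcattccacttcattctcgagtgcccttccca

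Of the deposited cells, those over 2000 genes, under 9000 genes and under 10% mitochondrial UMIs were kept, 2783 of 4505 control cells with 63153191 UMIs and 3489 of 5357 mutant cells with 69717583 UMIs. A UMI is the molecular tag that counts 1 captured transcript. The kept libraries shared 12 cell barcodes. Endothelial cell-like (EC-like) cells raised 15 of 15 endothelial markers over other cells. There were 146 in the control library (5.25% of kept cells, 3185963 UMIs, median 20162 per cell) and 692 in the mutant library (19.8%, 13796809 UMIs, median 17038). Female-like cells, with Xist and no Y-linked UMI, were 89.7% of control and 33.5% of mutant EC-like cells, and 54.9% of mutant ones were male-like, so the sex of the pooled embryos cannot be told apart from the genotype in the whole libraries. The makeup of the libraries differed too. Hepatoblast-like cells numbered 0 in control and 47 in mutant, and a cluster led by Adh1 held 340 and 58 cells. A difference in the tissue sampled cannot be told apart from the genotype either. The heat shock genes Hspa1a and Hspa1b differed more between the libraries than any member did, with log2 ratios of mutant over control of 4.79 and 5.16 in EC-like cells, where Hspa1a was at 19.2 CPM in control and 530 CPM in mutant. CPM is UMIs of a gene per 1000000 UMIs of the cells summed. Brackets hold 95% intervals, which are exact Poisson limits where a CPM is given, exact binomial limits conditional on the summed UMIs where a log2 ratio is given, and Clopper-Pearson limits where a share is given. All of them cover counting error only and say nothing of the spread between embryos or dissections, and "beyond counting error" means that the interval of a log2 ratio excludes 0.

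In the EC-like cells the ligand and the receptor differed in opposite directions between the genotypes. Apln was at 82.9 CPM (73.2 to 93.5, 264 UMIs) in the control library and 154 CPM (147 to 160, 2120 UMIs) in the mutant library. Aplnr was at 353 CPM (332 to 374, 1124 UMIs) in control and 172 CPM (166 to 179, 2378 UMIs) in mutant. The log2 ratio of mutant over control was 0.89 (0.71 to 1.08) for Apln and -1.03 (-1.14 to -0.93) for Aplnr, so the apelin transcript was higher and the transcript of its receptor lower in the mutant library, both beyond counting error.

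The guidance receptors and Esm1 were lower in the mutant library. Unc5b was at 133 CPM (121 to 146, 424 UMIs) in control and 39.5 CPM (36.3 to 43.0, 545 UMIs) in mutant EC-like cells, or a log2 ratio of -1.75 (-1.94 to -1.57). Robo4 was at 90.7 CPM (80.6 to 102, 289 UMIs) in control and 39.4 CPM (36.2 to 42.9, 544 UMIs) in mutant, or a log2 ratio of -1.20 (-1.41 to -0.99). Unc5b thus had the lowest ratio of the members with at least 20 UMIs, and its interval does not meet that of Robo4. With the sub-clusters described further on weighted alike in both libraries, the Unc5b ratio was -1.11. At that weighting Robo4 was at -1.15 and Aplnr at -1.14, so Unc5b was not the lowest there. Cd34 was at 455 CPM (432 to 479, 1449 UMIs) in control and 348 CPM (338 to 358, 4803 UMIs) in mutant, or a log2 ratio of -0.39 (-0.47 to -0.30). Esm1 was at 29.8 CPM (24.1 to 36.5, 95 UMIs) in control and 14.0 CPM (12.1 to 16.1, 193 UMIs) in mutant, or a log2 ratio of -1.09 (-1.45 to -0.72). The Esm1 value rests largely on 1 cell, which held 41 of the 95 control UMIs, and its log2 ratio was -0.21 as a mean over cells and -0.18 after thinning cells to 5000 UMIs. Without the cell with the most Esm1 UMIs in each library, the levels were 17.2 and 12.6 CPM and the log2 ratio was -0.45, an alternative chosen after seeing the data.

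Apela, the second ligand, was nearly absent from EC-like cells. It had 1 UMI in the control library and 12 in the mutant library, 0.314 CPM (0.00795 to 1.75) and 0.870 CPM (0.449 to 1.52), too few UMIs at this depth to show a difference (log2 ratio 1.47, -1.29 to 6.89). Counted against all genes with at least 20 UMIs in EC-like cells, 1 of the 6 members with that many was higher in mutant by 1.5-fold or more, where 15.2% of 14120 genes were. Of the same 6 members, 4 were lower by 1.5-fold or more (Aplnr, Esm1, Unc5b and Robo4), where 14.9% of genes were. The median log2 ratio was -1.06 over the 6 members and -0.07 over all genes tested. The members were chosen with results of these data known, so these counts describe them and support nothing.

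**Figure D1:**
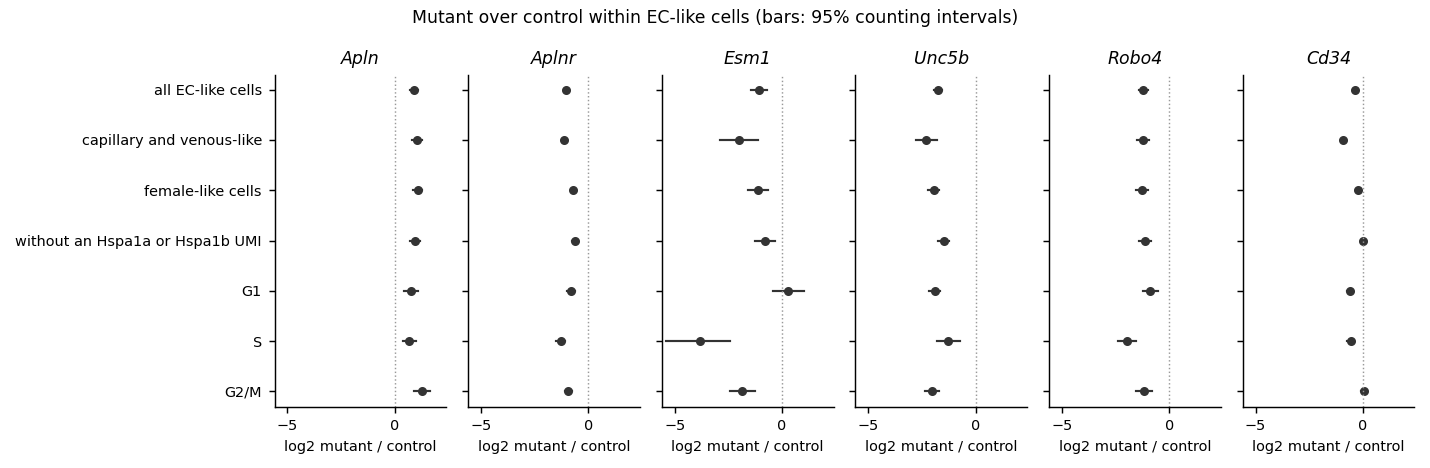
Log2 ratio of mutant over control for 6 members (panels) in all EC-like cells and in subsets of them (rows). Points are ratios of summed UMIs and bars their 95% counting intervals. Apln lies above 0 and Aplnr, Unc5b and Robo4 lie below 0 in every row, Esm1 crosses 0 in G1, and Cd34 is at 0.02 in cells without a UMI of Hspa1a or Hspa1b and 0.05 in G2/M.

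Markers of stress moved with the genotypes, so the members were also read in the 119 control and 235 mutant EC-like cells with no UMI of Hspa1a or Hspa1b. There the log2 ratio was 0.95 (0.73 to 1.18) for Apln, -0.63 (-0.76 to -0.49) for Aplnr, -1.50 (-1.76 to -1.24) for Unc5b, -1.14 (-1.43 to -0.85) for Robo4 and -0.78 (-1.25 to -0.30) for Esm1. Apln, Aplnr, Unc5b and Robo4 kept the direction they had in the whole EC-like class. For Esm1, 41 of the 81 control UMIs there came from 1 cell, so no direction is read from its ratio. Cd34 did not keep its direction, with 463 CPM in control, 470 CPM in mutant and a log2 ratio of 0.02 (-0.09 to 0.13). Of the 10 stress genes listed, 4 were higher by 1.5-fold or more (Hspa1b, Hspa1a, Atf3 and Dnajb1) and none was lower, while Fos, Ier2, Egr1 and Fosb had log2 ratios from -0.21 to -0.40. Over all 14120 genes tested, 15.2% were that much higher and 14.9% that much lower. Markers of other cell types also differed within the EC-like class. The summed level of 10 mesenchyme markers was 232 CPM in control and 122 CPM in mutant, that of 8 neural crest markers 72.8 and 240 CPM, and that of 9 mesothelium markers 9.73 and 42.3 CPM. Summed levels were also higher in mutant for 6 hepatoblast markers (2.20 and 23.7 CPM), 10 cardiomyocyte markers (56.2 and 145 CPM), 10 epithelium markers (13.2 and 35.3 CPM) and 10 neuron markers (227 and 369 CPM). Those of branchial muscle, macrophage, erythroid and smooth muscle and mural markers were at 39.2, 21.0, 65.3 and 113 CPM in control and 38.0, 19.0, 49.4 and 128 CPM in mutant. The 15 endothelial markers summed to 7878 and 7952 CPM. Of the 584 mutant UMIs of mesothelium markers, 305 lay in the Slc2a3-led sub-cluster described further on. Krt19, a gene of that marker list, was among its 10 leading genes. In the EC-like cluster itself, 1 of 8 neural crest markers was raised over other cells. Of the 738 control UMIs of mesenchyme markers, 424 lay in 4 cells of the Hpse2-led sub-cluster described further on. In these 4 cells mesenchyme markers summed to 3342 CPM and endothelial markers to 2908.5 CPM. In the 19 mutant cells of that sub-cluster the sums were 371 and 4686 CPM. Whether cells of other types or mixed cells were present was not tested. The part of stress or of other cell types in the members' differences was not tested.

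Sex allowed a comparison inside the mutant library, since its male-like and female-like cells came from different embryos. In 232 female-like and 380 male-like mutant EC-like cells, Apln was at 171 and 151 CPM, both above the 81.1 CPM of the 131 female-like control cells. Unc5b was at 37.3 and 43.6 CPM, against 144 CPM in female-like control cells. Robo4 was at 39.0 and 40.5 CPM, against 93.8 CPM. For these 3 genes both kinds of mutant embryo thus lay on the same side of the control cells. Aplnr was below the 347 CPM of female-like control cells in both kinds of mutant embryo, but it also differed inside the mutant library. It was at 213 CPM in female-like and 149 CPM in male-like mutant cells, a log2 ratio of male over female of -0.52 (-0.64 to -0.40). Smaller differences beyond counting error were found for Apln (-0.18, -0.31 to -0.05) and Cd34 (-0.18, -0.26 to -0.09). Compared among female-like cells only, the log2 ratio of mutant over control was -0.70 (-0.83 to -0.57) for Aplnr and -0.22 (-0.32 to -0.12) for Cd34, both nearer 0 than in all cells.

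The members did not share 1 pattern over cell classes. UMIs of Aplnr and Robo4 came almost wholly from EC-like cells, 96.0% and 94.8% of them in the control library and 97.5% and 94.6% in the mutant library. Esm1 was close to this, at 88.8% and 89.4%, and 11 of its 23 mutant UMIs outside EC-like cells lay in 2 of the 25 smooth muscle and mural-like cells. Apln had 59.3% of its control UMIs and 92.5% of its mutant UMIs in EC-like cells. The log2 ratio of EC-like over all other kept cells was 8.81 (8.39 to 9.27) in control and 7.33 (6.96 to 7.72) in mutant for Aplnr, 8.41 (7.69 to 9.24) and 6.15 (5.63 to 6.72) for Robo4, and 7.22 (6.35 to 8.22) and 5.09 (4.46 to 5.78) for Esm1. It was 4.78 (4.50 to 5.06) and 5.65 (5.43 to 5.88) for Apln and 4.51 (4.40 to 4.62) and 3.77 (3.68 to 3.85) for Cd34. Apela lay mostly outside vessels, with 1 of its 250 control and 12 of its 400 mutant UMIs in EC-like cells and log2 ratios of -3.73 (-9.04 to -1.23) and -2.996 (-3.96 to -2.17). Of the members higher in EC-like cells, Unc5b had the lowest ratios, with 3.81 (3.62 to 3.99) in control and 1.24 (1.08 to 1.39) in mutant.

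**Figure D2:**
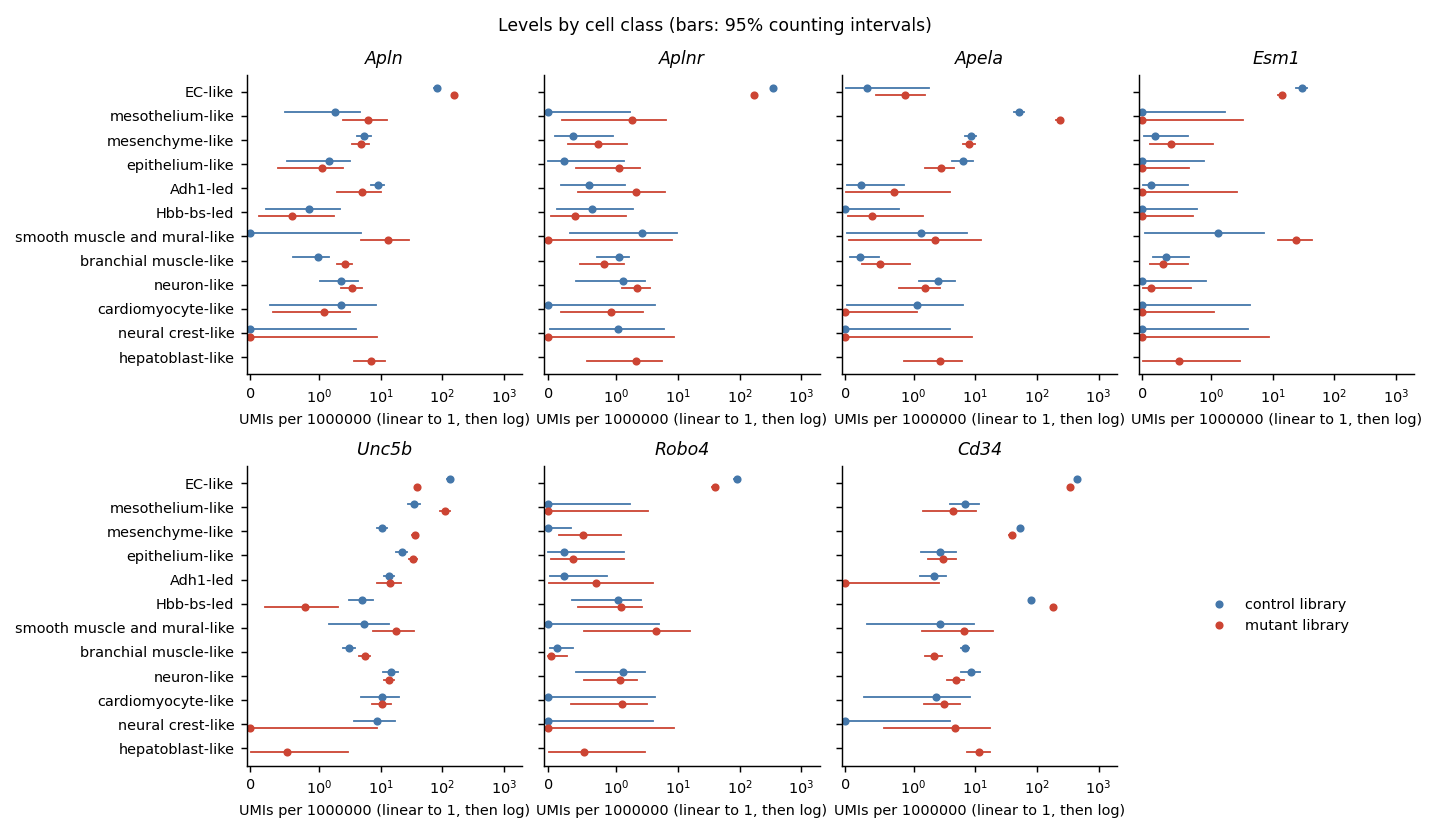
Level of each member (panels) in UMIs per 1000000 in the classes of kept cells (rows), with control in blue and mutant in red. Points are summed UMIs over class totals and bars 95% counting intervals, on an axis that is linear up to 1 and logarithmic above. Aplnr and Robo4 have their highest points in EC-like cells, as does Esm1 in control, while the mutant Esm1 point is higher in smooth muscle and mural-like cells (24.3, 25 cells) than in EC-like cells (14.0), Apela has it in mesothelium-like cells at 51.5 in control and 235 in mutant, and the red Unc5b points lie above the blue in mesothelium-like and mesenchyme-like cells.

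Apela was highest in mesothelium-like cells, which raised 9 of 9 markers of the cell layer lining the body cavities. It was at 51.5 CPM (42.4 to 62.0, 112 UMIs) in 70 control cells and 235 CPM (207 to 265, 265 UMIs) in 67 mutant cells, a log2 ratio of 2.19 (1.86 to 2.52). The UMIs were spread over cells, with at most 19 and 29 in any 1. Because these cells were deeper in the control library, with a median of 28114 UMIs against 13729, the share of cells with an Apela UMI was read after thinning each cell to 5000 UMIs. It was 18.6% (10.3 to 29.7) of 70 control cells and 52.3% (39.5 to 64.9) of 65 mutant cells, against 28.6% and 58.2% at full depth. In the Hbb-bs-led cluster, blood cells that serve as background, 0 of 170 thinned cells had an Apela UMI in either library, which by the floor of 3 counts used for a count of 0 allows a share of up to 1.76% (Clopper-Pearson upper limit 2.15%). Apela was also found in mesenchyme-like cells, at 8.56 CPM in control and 8.01 CPM in mutant, and in epithelium-like cells, at 6.33 and 2.79 CPM. The Apela levels of mesenchyme-like cells did not differ beyond counting error (log2 ratio -0.10, -0.55 to 0.36).

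Unc5b was lower in mutant in EC-like cells and higher in mutant in 4 other classes. In mesothelium-like cells it was at 35.0 CPM (27.6 to 43.8) in control and 112 CPM (93.8 to 134) in mutant, or a log2 ratio of 1.69 (1.26 to 2.12). In mesenchyme-like cells it was at 10.6 CPM (8.75 to 12.7) in 615 control cells and 36.01 CPM (32.3 to 40.0) in 600 mutant cells, a log2 ratio of 1.76 (1.45 to 2.08). In epithelium-like cells it was at 22.2 and 34.0 CPM, a log2 ratio of 0.62 (0.25 to 1.00). Thinned, the share of mesenchyme-like cells with an Unc5b UMI was 5.18% (3.54 to 7.27) in control and 13.6% (10.9 to 16.8) in mutant, against 1.18% in the Hbb-bs-led cells of both libraries. At full depth the shares of mesenchyme-like cells were 11.9% and 27.0%. In branchial muscle-like cells the log2 ratio was 0.83 (0.39 to 1.27). In neuron-like, Adh1-led and cardiomyocyte-like cells the difference was within counting error, with log2 ratios of -0.11 (-0.58 to 0.38), 0.04 (-0.72 to 0.74) and 0.01 (-1.08 to 1.25). In the Hbb-bs-led cells Unc5b was lower in mutant, as in EC-like cells, with 23 UMIs in control, 13 of them in 1 cell, and 4 in mutant (log2 ratio -2.63, -4.62 to -1.08). In the mutant library the Unc5b levels of EC-like and mesenchyme-like cells, 39.5 and 36.01 CPM, had overlapping intervals, where in control they were 133 and 10.6 CPM.

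Outside EC-like cells, Cd34 was highest in a cluster of blood cells in both libraries, and mesenchyme-like cells also held it. In the Hbb-bs-led cluster, which holds erythroid, macrophage and Mpo-positive cells together and was given no cell type name, it was at 81.6 CPM (73.6 to 90.2, 174 cells) in control and 183 CPM (171 to 195, 176 cells) in mutant, or a log2 ratio of 1.16 (0.99 to 1.34). The makeup of this cluster in each library was not resolved, so more Cd34-positive cells and more Cd34 per cell cannot be told apart. In mesenchyme-like cells Cd34 was at 53.5 CPM in control and 39.3 CPM in mutant, or a log2 ratio of -0.44 (-0.63 to -0.25). Apln outside vessels was low, at most 13.3 CPM in any class, reached in 25 mutant smooth muscle and mural-like cells with 6 UMIs. An Adh1-led cluster of no named type held 75 of the 181 Apln UMIs found outside EC-like cells in the control library, at 8.97 CPM in 340 cells, and with 58 cells of that cluster in mutant the level was 4.96 CPM.

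The EC-like cells were then divided into 7 sub-clusters, without the members among the genes used. The largest was called capillary and venous-like, from 4 of 10 markers raised (Cd36, Rgcc, Ramp3 and Ackr1), and held 66 control and 336 mutant cells. A lymphatic-like sub-cluster, with 9 of 9 markers raised, held 18 and 30 cells. The others are called by a leading gene. An Eln-led sub-cluster (19 and 87 cells) raised 11 of 11 arterial and 9 of 10 endocardial markers together. A Slco1c1-led sub-cluster (18 and 45 cells) was led by Spock2, Esm1, Slc38a5, Slco1c1 and Mfsd2a, of which the last 3 are transporters known from the blood-brain barrier, and raised 7 of 11 arterial markers. A Slc2a3-led one (11 and 152 cells), led by a glucose transporter gene, was 7.53% of control and 22.0% of mutant EC-like cells. A Jakmip3-led one held 10 and 23 cells and raised 4 of 10 endocardial markers (Hapln1, Tll1, Adgrg6 and Gata4). An Hpse2-led one, of 4 and 19 cells, had 2.17 times the median UMIs of EC-like cells and was led also by Dlk1 and Col1a1. Assigning EC-like cells to subtypes by counts of marker genes instead moved 19 of 28 levels beyond their counting intervals, among them mutant Apln in lymphatic cells, at 180 CPM by marker counts, so the levels below hold for these clusters. Levels are given for sub-clusters of at least 20 cells in a library, which in control is the capillary and venous-like one alone, and elsewhere UMIs and cells are given.

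Apln and Aplnr lay together in the capillary and venous-like cells, and their opposite difference held within this sub-cluster but not in every other one. Apln was at 111 CPM (95.4 to 128) in control and 227 CPM (216 to 238) in mutant, or a log2 ratio of 1.03 (0.81 to 1.26). Aplnr was at 531 CPM (497 to 568) in control and 244 CPM (232 to 255) in mutant, or a log2 ratio of -1.13 (-1.24 to -1.01). With capillary and venous cells taken by marker counts instead, the Apln difference was smaller, at 132 CPM in control and 167 CPM in mutant. Aplnr was then at 555 and 206 CPM. In the mutant Slc2a3-led cells Apln was at 139 CPM (125 to 155) and Aplnr at 108 CPM (95.9 to 122), and in the mutant Jakmip3-led cells they were at 123 and 311 CPM. The 11 control Slc2a3-led cells held 17 UMIs of Apln and 123 of Aplnr, and the 10 control Jakmip3-led cells held 33 and 87. As a share of all UMIs, Apln was lower in mutant Jakmip3-led cells, with 33 of 155968 in control and 60 of 488271 in mutant. In the Slco1c1-led cells both genes went the other way. Apln had 29 of 337223 UMIs in 18 control cells and 28 of 575303 in 45 mutant cells, and Aplnr had 27 and 101. These control groups are too small for a ratio. Both genes were near 0 in the Eln-led and lymphatic-like cells. Apln was at 5.77 CPM in mutant Eln-led and 2.68 CPM in mutant lymphatic-like cells, with no UMI in the 19 and 18 control cells, and Aplnr was at 7.05 and 14.7 CPM in mutant, with 2 and 0 UMIs in control.

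**Figure D3:**
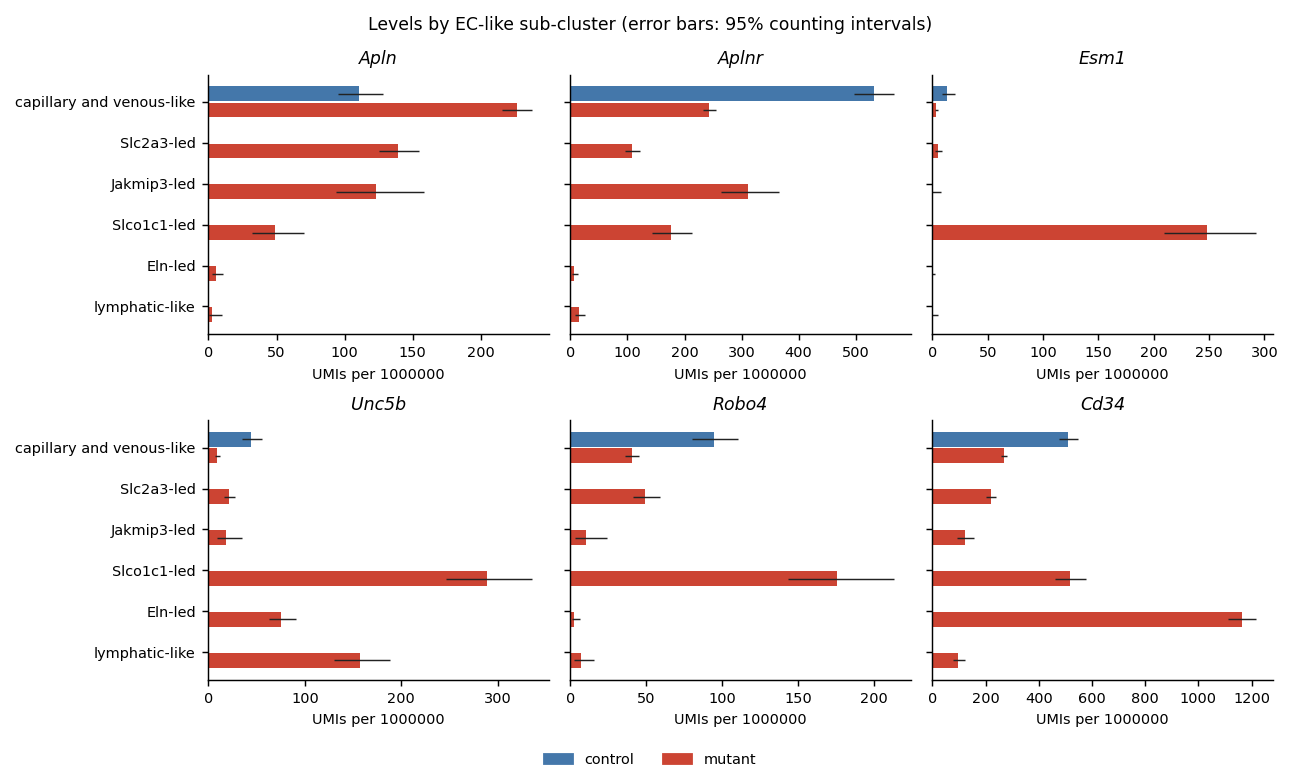
Level of 6 members (panels) in UMIs per 1000000 in EC-like sub-clusters (rows), with control in blue and mutant in red. Bars are summed UMIs over sub-cluster totals with 95% counting intervals, and sums of fewer than 20 cells are left out. Apln and Aplnr are near 0 in Eln-led and lymphatic-like cells, Esm1 stands at 248.6 in mutant Slco1c1-led cells, and Cd34 reaches 1163 in mutant Eln-led cells. Of the 1815 Cd34 UMIs there, 232 came from 1 cell.

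Esm1 lay elsewhere, in the Slco1c1-led cells. In the mutant library it was at 248.6 CPM (210 to 293) there, against 3.32 CPM (2.13 to 4.95) in capillary and venous-like cells and 4.76 CPM in Slc2a3-led cells. The 45 mutant Slco1c1-led cells were 6.50% of the EC-like cells and held 143 of the 193 Esm1 UMIs, 74.1%. The 18 control ones held 59 of 95, but 41 of these 59 came from 1 cell, and 7 of the 18 cells had an Esm1 UMI. The control share thus rests largely on that cell. Of the mutant Slco1c1-led cells, 46.7% (31.7 to 62.1) had an Esm1 UMI, with at most 20 in any 1 cell. No Esm1 UMI was found in lymphatic-like or Jakmip3-led cells of either library. In capillary and venous-like cells the control level of Esm1 was 13.3 CPM, from 22 UMIs, and the mutant level 3.32 CPM, from 24 UMIs, with a log2 ratio of -2.004 (-2.90 to -1.10). In this sub-cluster 21.2% (12.1 to 33.0) of control and 2.08% (0.842 to 4.25) of mutant cells had an Esm1 UMI at full depth. Thinned to 5000 UMIs the shares were 3.12% (0.381 to 10.8) and 1.52% (0.497 to 3.52), and a difference was not detectable. Where capillary and venous cells were taken by marker counts instead, Esm1 was at 9.76 CPM in control and 12.3 CPM in mutant. Its lower level in mutant thus did not hold there.

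Unc5b and Robo4 were also high in the Slco1c1-led cells, and Unc5b extended to lymphatic-like cells. In the mutant library Unc5b was at 289 CPM (246 to 336) in Slco1c1-led, 157 CPM (130 to 188) in lymphatic-like and 75.6 CPM (62.6 to 90.6) in Eln-led cells, and the 3 intervals do not overlap. It was at 9.002 CPM (6.95 to 11.5) in mutant capillary and venous-like cells, where control had 44.2 CPM (34.7 to 55.6), a log2 ratio of -2.30 (-2.80 to -1.80). Of the 73 control Unc5b UMIs there, 22 came from 1 of 66 cells, so the size of this ratio leans on that cell. Where capillary and venous cells were taken by marker counts instead, the Unc5b difference was smaller, at 34.15 CPM in control and 17.7 CPM in mutant. In control the 18 Slco1c1-led cells held 148 Unc5b UMIs and the 18 lymphatic-like cells held 117. Robo4 was at 176 CPM (143 to 213) in mutant Slco1c1-led cells, the only sub-cluster of the mutant library above 50 CPM. In capillary and venous-like cells it was at 94.5 CPM (80.3 to 111) in control and 40.3 CPM (35.8 to 45.2) in mutant, or a log2 ratio of -1.23 (-1.52 to -0.94). In the Eln-led cells 4 Robo4 UMIs were counted over 87 mutant cells and 17 over 19 control cells. Cd34 was highest in mutant Eln-led cells, at 1163 CPM (1110 to 1218), and lowest in lymphatic-like cells among sub-clusters of at least 20 cells, at 96.5 CPM (75.5 to 122). Of the 1815 Cd34 UMIs in mutant Eln-led cells, 232 came from 1 cell, a spread over cells that the interval does not cover. The 19 control Eln-led cells held 222 Cd34 UMIs of 299757, against 1815 of 1560625 in mutant. The 18 control lymphatic-like cells held 13 of 400327, against 72 of 746041 in mutant. In these 2 sub-clusters the Cd34 share of UMIs was thus higher in mutant, opposite to the whole EC-like class, from few control cells. In capillary and venous-like cells Cd34 was at 511 CPM (477 to 547) in control and 269 CPM (257 to 281) in mutant, or a log2 ratio of -0.92 (-1.04 to -0.81). That within-subtype ratio was further from 0 than the ratio over all EC-like cells.

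Ligand and receptor were read in the same cells after thinning to 5000 UMIs, which left 143 control and 660 mutant EC-like cells. In control, 26.6% (19.5 to 34.6) of EC-like cells had an Apln UMI and 54.5% (46.0 to 62.9) an Aplnr UMI, and in mutant the shares were 37.6% (33.9 to 41.4) and 44.7% (40.9 to 48.6). At full depth they were 42.5% and 62.3% in control and 56.4% and 64.0% in mutant. Of the thinned Hbb-bs-led cells, at most 1.18% had an Apln UMI and 0.588% an Aplnr UMI, at medians of 25412 and 27322 UMIs before thinning. Of control cells with an Apln UMI, 81.6% (65.7 to 92.3) also had an Aplnr UMI, against 44.8% (35.0 to 54.8) of those without. Of mutant cells with an Apln UMI, 56.9% (50.4 to 63.1) also had an Aplnr UMI, against 37.4% (32.7 to 42.2). Among capillary and venous-like cells the shares with an Aplnr UMI were 89.3% (71.8 to 97.7) with and 83.3% (67.2 to 93.6) without Apln in control, and 62.0% (54.0 to 69.4) and 54.5% (46.6 to 62.3) in mutant, with overlapping intervals in both libraries. The EC-like cells with an Apln UMI and no Aplnr UMI numbered 7 of 143 in control and 107 of 660 in mutant. Both Apln and Esm1 were found in 1 control and 10 mutant cells, and in mutant 4.03% (1.95 to 7.29) of cells with an Apln UMI had one of Esm1, against 3.64% (2.05 to 5.93) of those without. Esm1 was found with Unc5b in 4 of the 6 control and 16 of the 25 mutant cells with an Esm1 UMI, a share of 64.0% (42.5 to 82.0) in mutant against 12.6% (10.1 to 15.4) of the mutant cells without Esm1.

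The opposite difference of ligand and receptor was found in each cell-cycle phase, called on thinned cells. The control library had 64 EC-like cells in G1, 36 in S and 43 in G2/M, and the mutant library had 328, 159 and 173. Apln was at 79.3, 116 and 62.7 CPM in G1, S and G2/M in control and at 134, 184 and 150 CPM in mutant, higher in mutant in every phase. Aplnr was at 273, 398 and 390 CPM in control and at 156, 162 and 204 CPM in mutant, lower in mutant in every phase. Unc5b was highest in G1 in both libraries, at 204 CPM in control and 54.6 CPM in mutant. Its log2 ratio of S and G2/M over G1 was -1.07 (-1.35 to -0.79) in control and -1.001 (-1.26 to -0.75) in mutant. Within capillary and venous-like cells that ratio was -1.17 (-1.87 to -0.46) in control and -0.25 (-1.003 to 0.52) in mutant. In this sub-cluster 22 of the 33 control Unc5b UMIs in G1 came from 1 of 19 cells. No difference between the libraries is therefore read from these 2 ratios. Apln was higher in S and G2/M cells than in G1 cells in mutant, with a log2 ratio of 0.32 (0.19 to 0.45), and not beyond counting error in control (0.10, -0.28 to 0.49). Esm1 was at 19.4 CPM in control and 23.2 CPM in mutant in G1, with a mutant over control log2 ratio of 0.26 (-0.41 to 1.01). In G2/M it was at 46.8 and 13.03 CPM, but 41 of the 56 control UMIs in G2/M came from 1 cell, so no order of the phases is read from the control values. In S it had 18 UMIs in control and 6 in mutant.

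**Figure D4:**
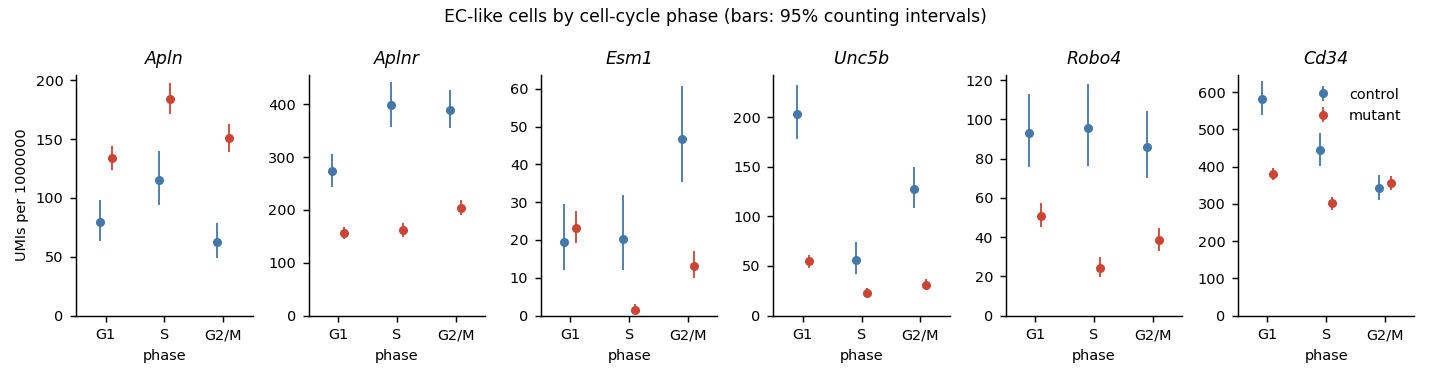
Level of 6 members (panels) in UMIs per 1000000 of EC-like cells in G1, S and G2/M, with control in blue and mutant in red. Points are summed UMIs over phase totals and bars 95% counting intervals. Apln is higher and Aplnr, Unc5b and Robo4 are lower in mutant in all phases, while Cd34 is within counting error between libraries in G2/M at 344 and 355. Of the 1498 mutant Cd34 UMIs in G2/M, 232 came from 1 cell.

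Other genes of the same pathways were read from lists, over genes with at least 20 UMIs in EC-like cells. Of all 14120 such genes, 15.2% were higher and 14.9% lower in mutant by 1.5-fold or more. The list counts below are a description beside these shares. Of 9 genes that process apelin or carry its receptor's signal, 2 were higher in mutant by 1.5-fold or more, Arrb2 (a beta-arrestin, log2 ratio 0.67, 0.34 to 1.02) and Mme (neprilysin, which degrades peptides, 0.80, -0.11 to 1.86), and none was lower. The lowest ratios in this list were those of Arrb1, Gnai1 and Gnai2, at -0.34, -0.29 and -0.29, and the list median was -0.13. Of 13 genes of netrin, slit and UNC5 guidance, 6 were higher and 3 were lower. The highest were Dcc, a netrin receptor that is also among the 10 leading genes of a neuron-like cluster, with 4 UMIs in control and 100 in mutant (log2 ratio 2.53, 1.13 to 4.43), Unc5d (1.74, -0.24 to 4.86) and Slit3, a ligand of roundabout receptors (1.47, 0.95 to 2.04). The lowest were Ntn1, which encodes netrin-1 (-1.86, -2.42 to -1.29), Robo2 (-1.33, -1.70 to -0.95) and Robo1 (-0.60, -0.72 to -0.47). Of 4 relatives and partners of CD34, none was higher and 2 were lower, Podxl (podocalyxin, -1.23, -1.41 to -1.03) and Podxl2 (-0.68, -1.19 to -0.15).

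Tip cell genes did not all differ in 1 direction. For the counts that follow, the shares over all 14120 genes tested were again 15.2% higher and 14.9% lower. Of 23 tip cell genes other than the members, 6 were higher and 10 lower by 1.5-fold or more, with a median of -0.32. Among the higher ones were Adm, which encodes the vessel peptide adrenomedullin (8.48 CPM in control and 203 CPM in mutant, log2 ratio 4.58, 4.04 to 5.19), and Igfbp3 (1.45, 1.36 to 1.54). The lowest were Cxcr4, a chemokine receptor (-2.47, -2.997 to -1.95), Rgcc (-2.31, -2.50 to -2.13) and Dll4, the Notch ligand of tip cells (-1.25, -1.47 to -1.03). Cxcr4 and Dll4 were also among the genes raised in the Slco1c1-led sub-cluster, which was 12.3% of control and 6.50% of mutant EC-like cells. Of 15 stalk and quiescent cell genes, 4 were higher and 3 lower, with a median of 0.16. The highest were Smad7 (1.62, 1.38 to 1.87), Flt1, the decoy VEGF receptor (1.01, 0.93 to 1.09), and Vwf (0.91, 0.73 to 1.10). The lowest were Hey1 (-0.99, -1.24 to -0.74), Notch4 (-0.98, -1.23 to -0.74) and Notch1 (-0.60, -0.76 to -0.44).

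Likeness of pattern was measured as Pearson's r of log2(CPM + 1) over 28 sums of at least 20 cells, classes and sub-clusters by library, which share 2 libraries and their depths, so it is a description. Among 8791 genes, Apln was most like Fam167b (0.86), Aplnr (0.86) and Tmem255a (0.85), and Aplnr was most like Pcdh12 (0.92), Fam167b (0.92) and Sox7 (0.92). Robo4 was most like Gpihbp1 (0.96), Prnd (0.96) and Zfp366 (0.94), and Cd34 most like Gimap1 (0.92), Gngt2 (0.91) and Gimap6 (0.91). Esm1 was most like 4930542D17Rik (0.87), Gpihbp1 (0.81) and Ammecr1 (0.79), and Unc5b, whose nearest genes were less near, most like Mast4 (0.74), Nhsl1 (0.74) and Cttnbp2nl (0.72). Between members r was 0.90 for Aplnr and Robo4 and 0.86 for Apln and Aplnr, 0.57 for Apln and Esm1 and -0.25 for Aplnr and Apela.

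The bases before the start site are shown for Apln, the member that was higher in mutant EC-like cells, and for Unc5b and Esm1, which were lower there and hold a match. Sequences are from RefSeq for GRCm38.p6, which held entries for 6 of the 7 members, all but Aplnr. Each is the 250 bases before the start, read 5′ to 3′ on the gene's strand. Capitals mark matches to the core letters of the hypoxia response element, ACGTG or GCGTG, on either strand.
Apln, minus strand, chrX:48034854-48035103: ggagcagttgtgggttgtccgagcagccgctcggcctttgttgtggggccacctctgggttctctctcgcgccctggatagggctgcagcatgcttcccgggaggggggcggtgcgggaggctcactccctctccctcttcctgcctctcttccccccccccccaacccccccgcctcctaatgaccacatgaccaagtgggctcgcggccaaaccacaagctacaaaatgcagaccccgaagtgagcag
Unc5b, minus strand, chr10:60831582-60831831: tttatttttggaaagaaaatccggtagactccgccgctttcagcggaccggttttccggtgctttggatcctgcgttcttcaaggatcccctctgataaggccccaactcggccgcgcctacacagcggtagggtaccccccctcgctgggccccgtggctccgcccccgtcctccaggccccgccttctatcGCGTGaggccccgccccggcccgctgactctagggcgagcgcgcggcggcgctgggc
Esm1, plus strand, chr13:113209409-113209658: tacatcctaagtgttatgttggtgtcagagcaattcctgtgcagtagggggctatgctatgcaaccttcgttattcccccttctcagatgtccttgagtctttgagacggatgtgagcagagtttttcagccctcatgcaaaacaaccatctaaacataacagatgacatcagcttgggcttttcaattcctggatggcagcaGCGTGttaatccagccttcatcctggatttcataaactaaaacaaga
The core was matched once in Unc5b, 57 bases before the start, and once in Esm1, 47 bases before, and not in this window of Apln, Apela, Robo4 or Cd34. Of 32851 promoters of this length, 38.6% held a match. GTAAACA, the core letters of FOXO sites, was matched once, in Apela, 21 bases before the start, and in 3.17% of all promoters. GGAA, the core of ETS sites, was matched 2 to 5 times in each of the 6, and 93.4% of all promoters held it. These letters are a description of the windows and not of binding.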

How the data were processed

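Single-cell RNA sequencing was performed with a 5′ kit on sorted eYFP+ cells, 1 library per genotype. Per the labels, the authors used Cell Ranger 7.1.0 (submitters' processing notes) and the mouse build GRCm38, and what they deposited are UMI counts per gene and called cell, without normalization. The handling of intronic reads and the annotation release are not given in the sources used here.

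The study's limits on cells were applied, that is over 2000 genes, under 9000 genes and under 10% mitochondrial UMIs. Integration and clustering of both libraries used Seurat 5.3.0 (R 4.3.3, 2000 variable genes, 30 components, resolution 0.22, the lowest giving 15 clusters). Left out of the variable genes were 75 genes, the members and those listed genes that are not cell type markers. Listed genes that are also markers, such as Dll4, Rgcc and Ramp3, stayed eligible. Clusters raising at least 3 markers 2-fold (1.5-fold for sub-clusters, resolution 0.3) were called X-like unless their leading genes went against the name. This rule was not held to for all sub-clusters. The Eln-led, Slco1c1-led and Jakmip3-led ones raised at least 3 markers of a list and still kept the name of a leading gene. Cluster names are rebuilt, so classes may differ from the study's. Doublets were kept, and removing the highest Scrublet scores (scanpy 1.11.5) was an alternative. Phases were scored with 43 S genes and 54 G2/M genes supplied with Seurat. UMIs were summed by class and library. A gene at 0 in 1 library was set at 3 UMIs, and no ratio is given when both libraries have 3 or fewer. Named genes are the 7 members, up to 3 highest and 3 lowest genes of each list, and the 3 genes nearest in pattern to each member with at least 100 UMIs. 1 gene that this rule names is not reported here. Members and lists were chosen with earlier results of these data known. On simulated sums of EC-like cells (14120 genes, 200 changed), the interval held the true ratio for 96.5% of changed and 96.1% of unchanged genes. These sums were drawn as Poisson counts, without single cells, which is the model behind the interval. The simulation thus checks the calculation and cannot show whether the intervals are wide enough for UMIs spread unevenly over cells. TMM factors were from edgeR 4.0.16. Intervals were computed with scipy 1.17.1 in Python 3.11.15, sums with numpy 2.4.6 and tables with pandas 2.3.3.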

Additional observations from a re-analysis of the deposited data

Results flagged for a closer look

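In 4 classes Unc5b was higher in the mutant library, opposite to the EC-like cells, where the log2 ratio (mutant over control) stood at -1.75. The ratio was 1.76 in mesenchyme-like, 1.69 in mesothelium-like, 0.83 in branchial muscle-like and 0.62 in epithelium-like cells. Cd34 was opposite in the Hbb-bs-led cluster, with a log2 ratio of 1.16 against -0.39 in EC-like cells. With 1 library per genotype, the difference between classes was not tested.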

How the results depend on the processing

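Of 123 alternative values of a mutant over control log2 ratio in EC-like cells, 95 stayed within the counting interval, 26 moved out of it and 2 changed the sign of a ratio that was beyond counting error. These were Esm1 in G1 cells, at 0.26, and Cd34 in cells without a UMI of Hspa1a and Hspa1b, at 0.021. Apela, whose interval spans 0, kept its sign in 11 of 15 alternatives and was at -0.38 with mitochondrial UMIs under 5%, -0.29 at resolution 0.8, -0.69 with classes from marker counts and -0.53 without the top cells. Without the top cells Apela had 0 UMIs in control, which was set at 3, and 9 UMIs in mutant. The negative sign there comes from the set count, and no direction is read from any of these Apela values. Aplnr was at -0.70 in female-like cells, -0.81 in G1 cells, -0.92 as a mean over cells, -1.24 with male-like mutant cells and -1.14 at a mean subtype mix. Esm1 was at -0.21 as a mean over cells, -0.18 in thinned cells and -0.26 at a mean subtype mix. Unc5b was at -1.55 with at least 1000 genes, -1.44 at resolution 0.8, -1.95 in female-like cells, -1.34 as a mean over cells and -1.11 at a mean subtype mix. Robo4 was at -0.88 in G1 cells, -0.91 as a mean over cells and -0.75 in thinned cells. Cd34 was at -0.22 in female-like cells, -0.62 in G1 cells, -0.28 with median ratio scaling, -0.53 as a mean over cells and -0.55 in thinned cells. Alternatives chosen after seeing the data gave -0.63 (Aplnr) and -1.50 (Unc5b) without Hspa1a and Hspa1b UMIs, -0.85 (Aplnr) and -0.25 (Cd34) without the Slc2a3-led sub-cluster, and -0.45 (Esm1) without the top cells. Of 56 ratios of EC-like over other cells, 46 stayed within the interval. Thinning gave 5.29 (Apln, mutant), 9.38 (Aplnr, control), 4.73 (Cd34, control) and 4.07 (Cd34, mutant). Leaving out high doublet scores gave 5.94 (Esm1), 6.91 (Robo4) and 3.89 (Cd34) in mutant, and classes from marker counts gave 5.92 (Esm1) and 4.17 (Cd34) in mutant and 9.24 (Robo4) in control. Another scaling added at most 0.10 to every log2 ratio. The cause of these movements was not tested. No paired analysis was possible because there is 1 library per genotype, and no replicate could be left out for the same reason.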
